A study of Mus musculus with 10 samples.

Results

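The mitochondrial carriers examined here are the mouse genes whose symbol is Slc25a followed by a number, together with Ucp2. Slc25a1, Slc25a13, Slc25a15 and Slc25a20 were left out of the set by its definition. This gave 43 genes of the 17359 in the gene table, chosen by name and not by any measured value. Of these, 38 had enough counts to be tested and 5 did not.

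The samples were livers of mice on a high-fat diet (HFD), which all groups shared. Controls ate ad libitum (AL, 3 libraries, numbered 2 to 4). The calorie-restricted mice followed a weekly cycle. It cut calories on days 1 and 4 (by 50%) and more deeply on days 2 and 3 (by 70%), and food was free from day 5 to day 7. These mice were sampled in the low-calorie phase on day 3 (LC, 4 libraries, numbered 1 to 4) or after refeeding on day 7 (RF, 3 libraries, numbered 1 to 3). The sources used here do not give strain, age, sex or hour of sampling. Nothing in the labels says that each library is a separate mouse, so a p-value here measures only how far these libraries spread.

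Carriers of this family sit mostly in the inner mitochondrial membrane and exchange or import small molecules that cannot cross it unaided. They move ADP and ATP, phosphate, the acids and amino acids of the redox shuttles, nucleotides, cofactors and iron. In liver they connect the urea cycle, gluconeogenesis, lipid synthesis and heme synthesis in the cytosol with the mitochondrial matrix.

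Library totals were 13871533 to 15899479 expected counts. Levels of 1 gene across libraries are given as CPM, counts scaled to a common library total, after scaling with edgeR's TMM factors, in the order of the replicate numbers. Differences are log2 fold changes with a standard error (SE) from edgeR, and a gene was called changed when its Benjamini-Hochberg adjusted p over all 12789 genes tested was below 0.05. Each adjusted p below comes from that quasi-likelihood test unless another tool is named. The level of the 10 hepatocyte markers marked the tissue as liver. Their summed CPM was lower at LC (67193 to 78050) than at AL (94324 to 112468) or RF (87565 to 94502). At LC against AL, 5 of the 10 were called lower and none higher, next to 15.6% and 16.0% of all genes. Of the 10, 1 had a positive difference. The summed CPM of the 8 sinusoidal endothelial markers was higher at LC (289 to 315) than at AL (185 to 200.0) or RF (247 to 286). At LC against AL, 4 of these 8 were called higher and none lower, while 3 had a negative difference. In the RF libraries the 6 stellate cell markers summed to between 193 and 224 CPM. That was above both AL (149 to 172) and LC (120 to 159). Of these 6, 4 were called higher at RF against LC and none lower, next to 11.4% and 10.7% of all genes. The 3 adipocyte markers in the table were low, between 2.52 and 4.53 CPM at AL, 0.323 and 2.34 at LC, and 0.268 and 0.732 at RF, and only Cidea among them could be tested. Lymphocyte and cholangiocyte markers overlapped between LC and both other groups. The part of these shifts in the carrier results was not tested, and in bulk RNA fewer cells of a type and less RNA per cell cannot be told apart.

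Promoter sequences are shown for 4 carriers as examples: Slc25a30, with the widest swing between restriction and refeeding, Slc25a5, the abundant carrier that fell most at LC, and Slc25a28 and Slc25a36. These last were higher at LC and lower again at RF, as were Slc25a38 and Slc25a2, which are not shown. Each sequence shown is the 250 bases before the annotated start, read 5′ to 3′ on the gene's strand, from RefSeq on GRCm38.p6. The deposited tables were made on GRCm39, so these coordinates belong to the RefSeq build only. The windows are chr14:75787038-75787287 on the minus strand for Slc25a30, chrX:36795347-36795596 on the plus strand for Slc25a5, chr19:43674882-43675131 on the minus strand for Slc25a28 and chr9:97111042-97111291 on the minus strand for Slc25a36. Capitals mark a match to any of the 7 motifs searched.
Slc25a30: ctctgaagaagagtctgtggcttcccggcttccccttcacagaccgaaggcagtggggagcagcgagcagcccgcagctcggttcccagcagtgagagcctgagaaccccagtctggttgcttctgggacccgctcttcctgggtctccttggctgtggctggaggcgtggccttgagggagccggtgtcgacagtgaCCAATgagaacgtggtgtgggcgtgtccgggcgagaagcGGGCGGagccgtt
Slc25a5: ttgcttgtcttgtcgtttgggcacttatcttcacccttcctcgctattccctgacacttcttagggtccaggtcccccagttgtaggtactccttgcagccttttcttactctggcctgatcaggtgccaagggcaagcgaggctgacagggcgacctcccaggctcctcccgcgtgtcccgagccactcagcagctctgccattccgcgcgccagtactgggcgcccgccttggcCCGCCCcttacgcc
Slc25a28: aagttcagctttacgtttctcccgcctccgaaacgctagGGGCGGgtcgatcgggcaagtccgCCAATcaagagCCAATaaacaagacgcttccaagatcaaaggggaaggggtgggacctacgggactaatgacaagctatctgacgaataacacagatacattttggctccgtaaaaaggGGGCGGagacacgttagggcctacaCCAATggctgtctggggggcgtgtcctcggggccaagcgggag
Slc25a36: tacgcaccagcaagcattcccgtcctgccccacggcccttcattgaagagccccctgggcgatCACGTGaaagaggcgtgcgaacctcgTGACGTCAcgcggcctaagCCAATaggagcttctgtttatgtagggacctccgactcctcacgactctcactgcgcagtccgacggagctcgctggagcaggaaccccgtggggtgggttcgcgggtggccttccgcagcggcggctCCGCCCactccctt
The motifs, searched on both strands, were the GC box GGGCGG, the CCAAT box CCAAT, the E-box CACGTG, the cAMP response element TGACGTCA, the nuclear respiratory factor 1 motif (GCGCA and GCGC with 1 base between), the estrogen-related receptor half-site TCAAGGTCA, and a direct repeat of AGGTCA with 1 base between the copies, which shares AGGTCA with the half-site. RefSeq gave windows for 32 of the 43 carriers, 41 windows in all. A GC box lay in 70.7% of the carriers' windows and in 32.7% of all 32851 windows of the same length, which include starts of noncoding genes. A CCAAT box lay in 46.3% of the carriers' windows and in 33.8% of all. The window of Slc25a5 held a GC box and no other of the motifs, whereas those of Slc25a30 and Slc25a28 held both boxes. The window of Slc25a36 also held an E-box, found in 6.02% of all windows, and a full cAMP response element, found in 1.55% of all windows and, among the carriers, otherwise in those of Slc25a25. In contrast, the window of Slc25a38, which had the same pattern as Slc25a28 and Slc25a36, held none of the motifs. The nuclear respiratory factor 1 motif, at 3.74% of all windows, lay in those of Slc25a3 and Slc25a31. The half-site and the direct repeat, at 0.387% and 0.0335% of all windows, had no match in a carrier's window. These are matches of letters only.

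Compared per transcript length, as FPKM (fragments scaled by transcript length and library size), the set was dominated by a few genes. Slc25a47, a carrier known for its liver-enriched expression, held 34.1% of the carriers' summed mean FPKM, with means of 883 ± 106 FPKM at AL, 984 ± 325 at LC and 792 ± 213 at RF (± SD over 3, 4 and 3 libraries). Next came Slc25a3, the phosphate carrier, with 10.4%, Slc25a39, which supplies mitochondrial glutathione, with 10.01%, Slc25a5, an ADP/ATP carrier, with 9.86%, and Slc25a25, a calcium-regulated ATP-Mg/phosphate carrier, with 9.76%. These 5 genes together held 74.2%. The order among the 4 that follow Slc25a47 changed with the group. At LC, Slc25a5 held 5.81 to 6.91% of the carriers' FPKM and lay below the other 3, whose ranges overlapped one another, between 7.01 and 13.9%. At the other end, 8 carriers had a mean below 1 FPKM. The FPKM summed over the carriers was 2481 ± 137 at AL, 2783 ± 228 at LC and 2560 ± 422 at RF, and the groups overlapped.

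**Figure D1:**
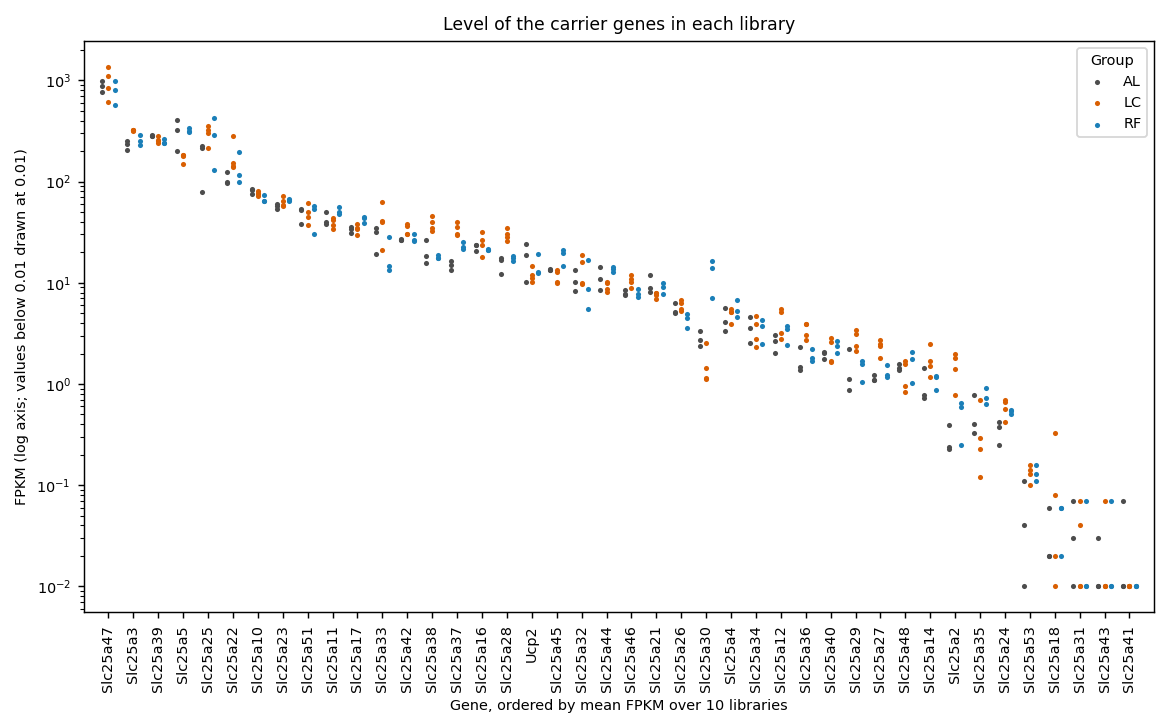
FPKM of the carriers reported here (logarithmic axis, values below 0.01 drawn at 0.01), with genes in order of their mean; points are the 10 libraries, coloured by group. Slc25a47 lies above all other carriers in mean level, and 8 carriers have a mean below 1 FPKM.

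At LC against AL, 14 of the 38 tested carriers were called changed, or 36.8%, next to 31.5% of all genes tested. The 5 that rose (16.0% of all genes rose) were Slc25a37, Slc25a28, Slc25a2, Slc25a38 and Slc25a36. Of these, Slc25a2 passed the filter on low counts through its high LC libraries. The 9 that fell (15.6% of all genes fell) were Slc25a5, Slc25a30, Ucp2, Slc25a21, Slc25a44, Slc25a39, Slc25a45, Slc25a11 and Slc25a10. The share called lay near that of all genes, so this count is no result about the carriers as a set. The median log2 difference was -0.13 over the tested carriers and 0.05 over all genes tested, with a range over the carriers of -1.21 to 2.05.

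At RF against LC, 10 of 38 were called, or 26.3%, next to 22.1% of all genes. The 6 that were higher (11.4% of all genes) were Slc25a30, Slc25a5, Slc25a45, Slc25a44, Slc25a11 and Slc25a17, and the 4 that were lower (10.7% of all genes) were Slc25a38, Slc25a2, Slc25a36 and Slc25a28. The median was -0.02 over the carriers and -0.02 over all genes. This comparison shares the LC libraries with the first, so the values of both are given side by side below and no overlap is drawn from them. At RF against AL, edgeR called 0 of 38 carriers, next to 0.0547% of all genes (0.0156% higher and 0.0391% lower). There 6 carriers had an unadjusted p below 0.05. DESeq2 called 1, Slc25a30, next to 0.774% of all genes, and the limma fits of FPKM called 0, next to 0.00782%.

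Scaling bears on the counts at LC against AL and at RF against LC, while at RF against AL library totals alone also called 0 carriers. Scaled by library totals only, the median over all genes moved by 0.31 on the log2 scale for LC against AL, by 0.11 for RF against AL and by -0.21 for RF against LC, and the share of rises among all calls went from 50.7% to 86.5% in the first and from 51.5% to 19.8% in the third. On that scale 11 carriers rose and 1 fell at LC against AL, against 5 and 9 with TMM, and 5 were higher and 7 lower at RF against LC, against 6 and 4. All 9 carriers that fell with TMM kept a negative difference, between -0.89 and -0.07, and Slc25a5 was still called. Statements on rises and falls are therefore relative to the bulk of genes.

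**Figure D2:**
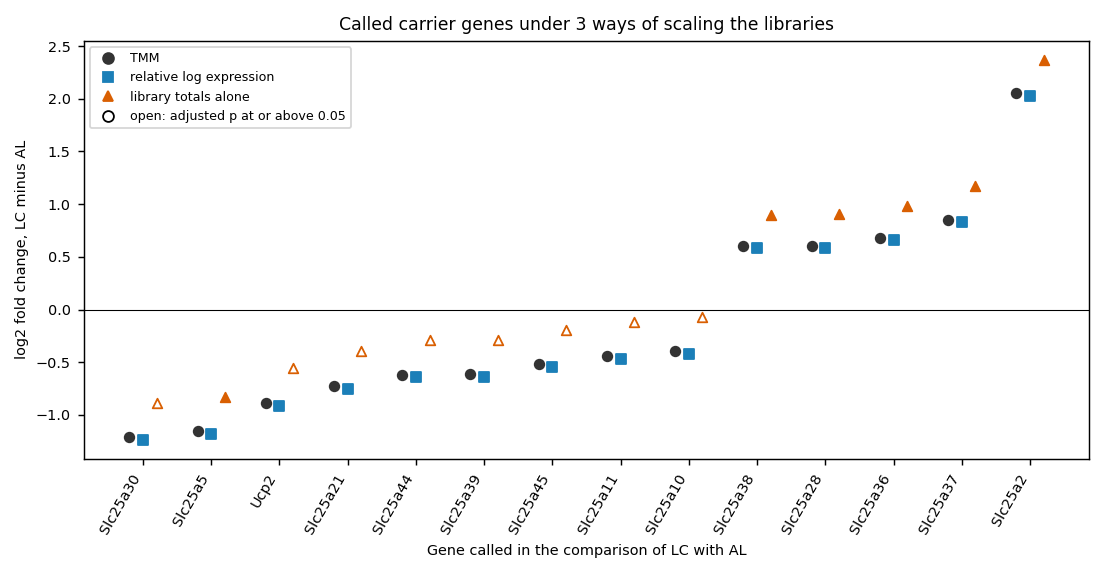
Log2 fold change of LC against AL for the 14 called carriers under 3 ways of scaling the libraries: TMM (circles), relative log expression (squares) and library totals alone (triangles); open symbols have an adjusted p of 0.05 or more. The triangles lie above the other symbols for every carrier, and of the 9 carriers that fell only Slc25a5 keeps a filled triangle.

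**Figure D3:**
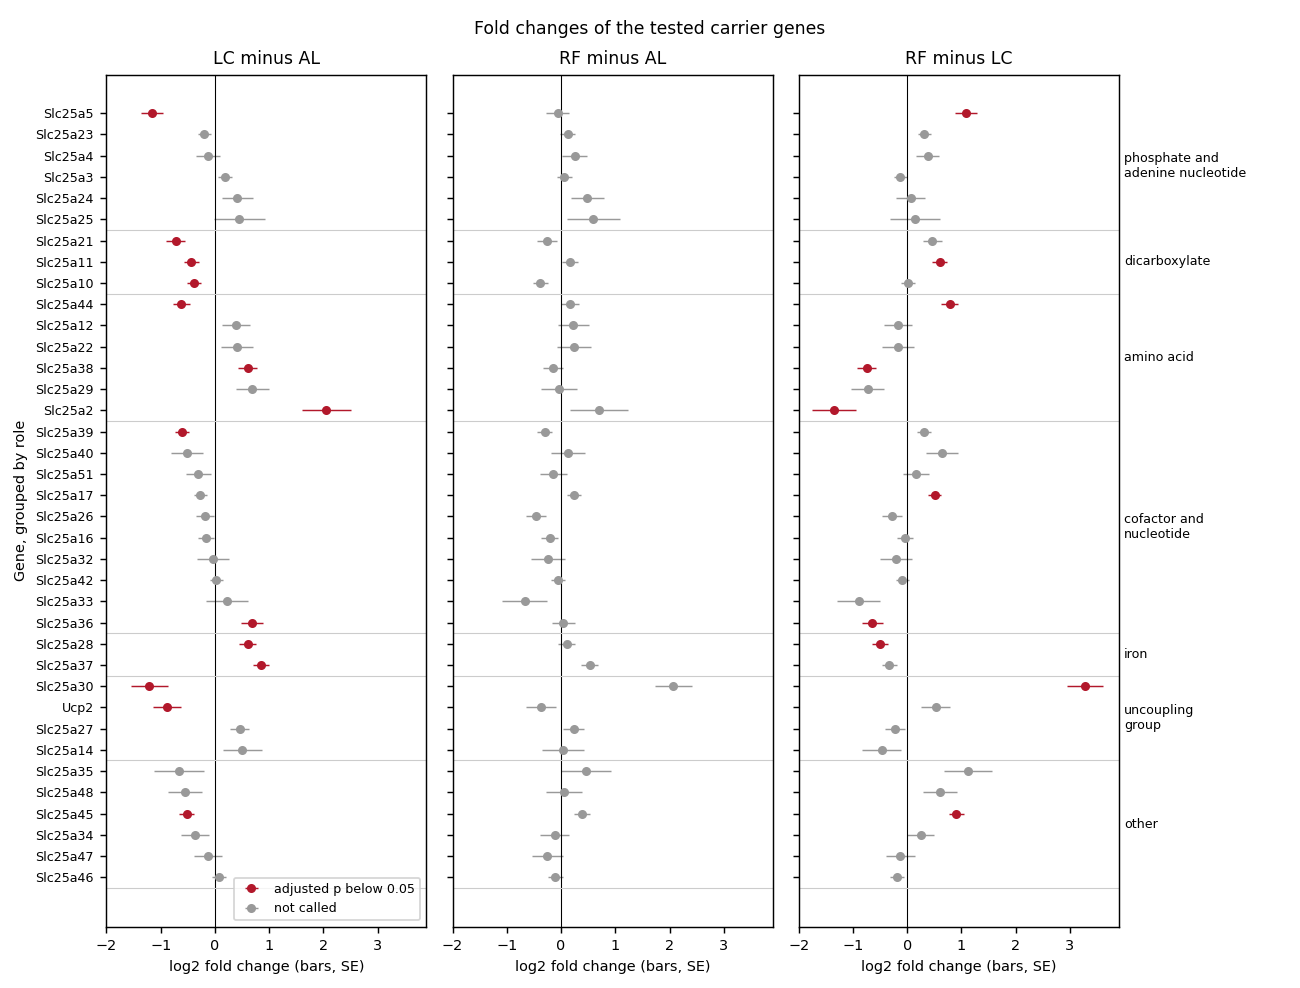
Log2 fold change of the tested carriers reported here, with its SE as a bar, in the 3 comparisons; red points have an adjusted p below 0.05 and grey ones do not. Slc25a30 has the lowest value at LC against AL (-1.21) and the highest at RF against LC (3.28), and no point is red at RF against AL.

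The counts by role that follow stand next to 15.6% of all genes that fell at LC against AL and 16.0% that rose. Each role holds few genes. Among the carriers of ADP, ATP and phosphate, 1 of 6 tested fell at LC against AL and none rose. Slc25a5 exchanges cytosolic ADP for matrix ATP. It stood at 220, 407 and 464 CPM at AL, at 136, 180, 162 and 175 at LC, and at 338, 338 and 366 at RF. All LC libraries lay below all others, and the lowest AL library was replicate 2. The level at LC was 2.23-fold lower than at AL (log2 difference -1.15, SE 0.20, adjusted p = 0.0014) and 2.13-fold lower than at RF (RF against LC 1.09, SE 0.20, adjusted p = 0.0033). At RF against AL the difference was -0.07 (SE 0.22, adjusted p = 0.94). Slc25a5 has a pseudogene, Slc25a5-ps, and the sources used here do not say how reads were shared with it.

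Slc25a3, which brings in the phosphate that ATP synthesis needs, stood at 302, 307 and 337 CPM at AL, at 347, 378, 334 and 375 at LC, and at 293, 371 and 322 at RF. The groups lay close together, and LC against AL gave 0.18 (SE 0.13, adjusted p = 0.28), a difference that was called with library totals alone and on FPKM. Slc25a4, the ADP/ATP carrier that prevails in heart and muscle, was low, at 4.67, 4.37 and 6.69 CPM at AL, 4.90, 5.66, 4.74 and 3.95 at LC, and 5.19, 7.59 and 5.95 at RF. Its groups overlapped, with adjusted p of at least 0.22 in the 3 comparisons, and the 4 skeletal muscle markers summed to at most 0.333 CPM in any library. Slc25a25 stood at 236, 781 and 675 CPM at AL, 895, 581, 740 and 872 at LC, and 393, 1288 and 879 at RF. The spread within AL and within RF was as wide as any difference between groups, and LC against AL gave 0.45 (SE 0.47, adjusted p = 0.49). Of the other ATP-Mg/phosphate carriers, Slc25a23 and Slc25a24 were not called, and Slc25a41 had 0 counts in 9 libraries and 1 in the other. Slc25a31, an ADP/ATP carrier known from testis, had at most 2 counts.

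All 3 carriers of dicarboxylates and oxoacids fell at LC against AL, next to 15.6% of all genes. Of the 19 alternative settings, 9 did not call Slc25a10 in this comparison, 8 did not call Slc25a11 and 4 did not call Slc25a21. Slc25a21, the carrier of oxodicarboxylates from lysine and tryptophan breakdown, stood at 18.6, 29.5 and 18.5 CPM at AL, 13.3, 14.7, 13.4 and 12.4 at LC, and 20.8, 19.0 and 15.9 at RF. Its LC libraries lay below all others, and the difference from AL was -0.72 (SE 0.17, adjusted p = 0.0070). Slc25a11 exchanges malate for 2-oxoglutarate in the malate-aspartate shuttle. It stood at 57.9, 71.2 and 80.1 CPM at AL, 43.7, 56.9, 54.4 and 51.0 at LC, and 76.2, 86.0 and 72.3 at RF. LC lay below both other groups, only narrowly below AL, with -0.44 (SE 0.14, adjusted p = 0.027) against AL and 0.60 (SE 0.14, adjusted p = 0.0086) for RF against LC. Slc25a10 exchanges malate or succinate for phosphate. It stood at 296, 382 and 339 CPM at AL, 238, 266, 260 and 268 at LC, and 248, 287 and 247 at RF. Here RF stayed with LC, and both groups lay below AL, with -0.39 (SE 0.13, adjusted p = 0.031) for LC against AL, -0.38 (SE 0.14, adjusted p = 0.35) for RF against AL and 0.01 (SE 0.13, adjusted p = 0.95) for RF against LC. Genes on the other strand overlap all 3 in the GENCODE M21 annotation, and without strand their reads cannot be told apart. Rnf167, which overlaps Slc25a11, stood between 54.1 and 62.8 CPM at AL, between 43.9 and 52.6 at LC, and between 36.8 and 45.2 at RF. Pax9, which overlaps Slc25a21, stood at 0.126 to 0.599 CPM in all libraries. The same limit holds for 18 of the 43 carriers, among them the called Slc25a37, Slc25a2, Slc25a36 and Ucp2. Dnajb13, which overlaps Ucp2, reached at most 0.356 CPM, and Gm37013, which overlaps Slc25a2, at most 0.266.

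**Figure D4:**
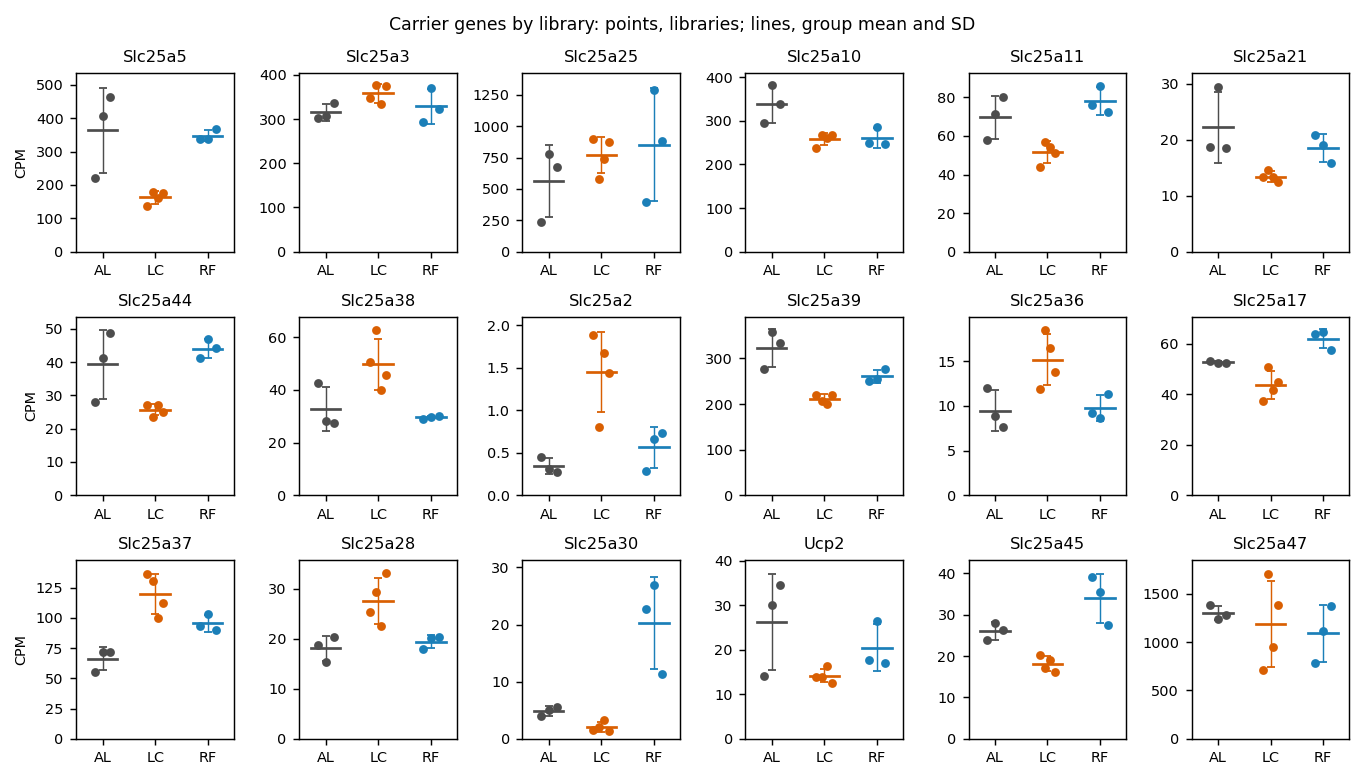
CPM with TMM scaling in each library, for the carriers called in any comparison and for Slc25a3, Slc25a25 and Slc25a47, which were not called. There is 1 panel a gene, with points for libraries, a thick line for the group mean and a bar for its SD, and axes start at 0. The uncalled Slc25a4, Slc25a12, Slc25a22, Slc25a33, Slc25a42 and Slc25a51 are not drawn. Slc25a5 is lowest in the 4 LC libraries (136 to 180 CPM), Slc25a37 is highest there (99.8 to 136), and Slc25a30 is highest in the 3 RF libraries (11.4 to 27.0).

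Amino acid carriers went both ways at LC against AL, with 2 of 6 tested higher and 1 lower. Slc25a38 brings glycine into mitochondria for heme synthesis. It stood at 42.4, 28.2 and 27.6 CPM at AL, 50.6, 62.6, 40.1 and 45.6 at LC, and 28.8, 29.8 and 30.0 at RF. AL replicate 2 reached into the LC range, whereas no RF library did, and the differences were 0.60 (SE 0.18, adjusted p = 0.019) for LC against AL and -0.75 (SE 0.18, adjusted p = 0.010) for RF against LC. Slc25a2, an ornithine carrier related to Slc25a15, stood at 0.445, 0.312 and 0.276 CPM at AL, 1.88, 0.800 (replicate 2), 1.67 and 1.44 at LC, and 0.284, 0.666 and 0.736 at RF. The LC libraries were above all others, at 13 to 31 counts against 4 to 6 at AL, and the gene passed the filter on low counts through them, so its calls at LC against AL (2.05, SE 0.45, adjusted p = 0.0047) and RF against LC (-1.35, SE 0.41, adjusted p = 0.032) rest on few reads.

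Slc25a44, which carries branched-chain amino acids, moved opposite to both. It stood at 28.1, 41.2 and 48.8 CPM at AL, 27.1, 23.6, 27.0 and 24.9 at LC, and 41.2, 46.9 and 44.3 at RF. LC lay below the other groups, with AL replicate 2 close above the highest LC library, and gave -0.62 (SE 0.16, adjusted p = 0.010) against AL, while RF against LC gave 0.78 (SE 0.16, adjusted p = 0.0047). Slc25a12, an aspartate/glutamate carrier of the malate-aspartate shuttle that prevails outside liver, stood at 8.16, 7.33 and 9.66 CPM at AL, 7.16, 15.1, 7.92 and 13.8 at LC, and 7.54, 11.3 and 10.6 at RF. LC replicates 2 and 4 were high and 1 and 3 were not, and no comparison was called. Slc25a22, a glutamate carrier, stood at 235, 351 and 253 CPM at AL, 577, 311, 299 and 303 at LC, and 242, 472 and 280 at RF. A single library in LC and another in RF stood above the rest, and LC against AL gave 0.41 (SE 0.29, adjusted p = 0.31). Slc25a29, a carrier of basic amino acids, was not called, and Slc25a18, the other glutamate carrier, reached at most 9 counts.

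Both mitoferrins, which import the iron for heme and iron-sulfur clusters, rose at LC against AL. Slc25a37 (mitoferrin 1) stood at 55.6, 71.9 and 71.7 CPM at AL, 136, 131, 99.8 and 113 at LC, and 93.4, 103 and 89.6 at RF. AL lay below both other groups, and RF overlapped LC at its lower end. The rise at LC was 1.81-fold (0.85, SE 0.14, adjusted p = 0.0011), while RF against AL gave 0.52 (SE 0.15, adjusted p = 0.26) and RF against LC -0.33 (SE 0.14, adjusted p = 0.11). Slc25a28 (mitoferrin 2) stood at 18.8, 15.4 and 20.3 CPM at AL, 25.4, 29.3, 22.7 and 33.1 at LC, and 17.9, 20.1 and 20.3 at RF. All LC libraries lay above all others, and the differences were 0.60 (SE 0.15, adjusted p = 0.0097) for LC against AL and -0.50 (SE 0.15, adjusted p = 0.030) for RF against LC. Whether the 2 mitoferrins differ from each other in their response was not tested.

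Of 11 carriers of cofactors and nucleotides, 1 rose and 1 fell at LC against AL. Slc25a39 stood at 276, 358 and 334 CPM at AL, 219, 207, 199 and 219 at LC, and 251, 255 and 278 at RF. LC lay below both other groups, with -0.61 against AL (SE 0.12, adjusted p = 0.0030) and 0.31 for RF against LC (SE 0.12, adjusted p = 0.093). Its paralog Slc25a40 was at 1.95 to 2.36 FPKM in the group means, next to 249 to 284 FPKM for Slc25a39, and was not called. Slc25a36, a pyrimidine nucleotide carrier, stood at 12.0, 8.82 and 7.59 CPM at AL, 11.9, 18.5, 16.5 and 13.8 at LC, and 9.17, 8.65 and 11.4 at RF. AL replicate 2 overlapped LC, and the differences were 0.68 (SE 0.20, adjusted p = 0.019) for LC against AL and -0.64 (SE 0.20, adjusted p = 0.033) for RF against LC. The related Slc25a33 varied from 19.2 to 75.8 CPM, with 49.2, 50.8 and 28.3 at AL, 25.3, 51.6, 46.9 and 75.8 at LC, and 19.2, 22.0 and 39.3 at RF. Its groups overlapped, and it was not called.

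Slc25a17, a peroxisomal carrier of CoA, FAD and NAD, stood at 53.1, 52.4 and 52.3 CPM at AL, 37.1, 50.7, 41.8 and 44.7 at LC, and 63.8, 64.6 and 57.7 at RF. The 3 groups did not overlap. RF against LC gave 0.51 (SE 0.12, adjusted p = 0.010), and LC against AL gave -0.27 (SE 0.12, adjusted p = 0.10). Slc25a51, the NAD carrier of mitochondria, stood at 239, 262 and 176 CPM at AL, 164, 243, 176 and 147 at LC, and 132, 247 and 234 at RF. Slc25a42, a CoA carrier, kept to a narrow band, at 80.7, 94.3 and 84.7 CPM at AL, 97.5, 82.6, 90.1 and 82.7 at LC, and 79.7, 78.4 and 91.1 at RF. Both had overlapping groups, and LC against AL gave -0.30 (SE 0.23, adjusted p = 0.34) for Slc25a51 and 0.03 (SE 0.12, adjusted p = 0.87) for Slc25a42. The folate carrier Slc25a32 and the S-adenosylmethionine carrier Slc25a26 were not called in any comparison, nor was Slc25a16.

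Among the 4 uncoupling protein relatives, 2 fell at LC against AL. Slc25a30, also known as kidney mitochondrial carrier protein 1, stood at 3.93, 4.99 and 5.59 CPM at AL, 1.51, 2.03, 3.28 and 1.44 at LC, and 22.7, 27.0 and 11.4 at RF. The groups did not overlap, with LC lowest and RF highest. It was 9.71-fold higher at RF than at LC (3.28, SE 0.33, adjusted p = 0.00015) and 2.31-fold lower at LC than at AL (-1.21, SE 0.34, adjusted p = 0.019). At RF against AL the estimate was 4.20-fold (2.07, SE 0.34) with an adjusted p of 0.053, which edgeR did not call. DESeq2 gave an adjusted p of 4.4e-06 for that difference, edgeR without a filter on low counts gave 0.046, and without RF replicate 3, the lowest of its group, edgeR gave 2.34 with an adjusted p of 0.0063. Without AL replicate 3 the adjusted p was 0.29.

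Ucp2, which is known to limit the oxidation of glucose-derived carbon and is expressed strongly in macrophages, stood at 14.2, 30.0 and 34.6 CPM at AL, 13.9, 13.9, 16.3 and 12.6 at LC, and 17.7, 26.5 and 17.1 at RF. AL replicate 2 lay within the LC range, so the fall of -0.89 (SE 0.26, adjusted p = 0.023) comes from the other AL libraries. RF against LC gave 0.52 (SE 0.26, adjusted p = 0.17). Of 10 Kupffer cell and macrophage markers, 2 were called lower at LC against AL and none higher. Over all genes 15.6% fell and 16.0% rose. The 2 were Lyz2 (-1.42, SE 0.33, adjusted p = 0.0075) and Mpeg1 (-1.03, SE 0.20, adjusted p = 0.0024). In the other direction, 4 of the 10 had a positive difference, up to 0.53. The 10 markers summed to between 136 and 200.3 CPM at AL, between 116 and 201 at LC, and between 155 and 210.1 at RF. Their part in the Ucp2 result was not tested. Slc25a27 and Slc25a14 were not called.

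Among the carriers with a less settled or different substrate, 1 of 6 tested was called. Slc25a45 stood at 23.8, 27.9 and 26.4 CPM at AL, 20.2, 17.2, 19.0 and 16.3 at LC, and 39.0, 35.5 and 27.4 at RF. LC lay below both groups and RF overlapped AL at its lower end, with -0.52 (SE 0.14, adjusted p = 0.014) for LC against AL, 0.38 (SE 0.15, adjusted p = 0.39) for RF against AL and 0.90 (SE 0.14, adjusted p = 0.0014) for RF against LC. Slc25a47, the most abundant carrier, stood at 1383, 1238 and 1286 CPM at AL, 713, 1710, 955 and 1389 at LC, and 789, 1112 and 1370 at RF. The LC libraries spanned both other groups, and no comparison was called. Slc25a46, a protein of the outer membrane tied to mitochondrial shape, and Slc25a34, Slc25a35 and Slc25a48 were not called, and Slc25a43 and Slc25a53 had at most 1 and 7 counts.

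The calls differed in how far they rested on 1 library. At LC against AL, Slc25a37, Slc25a39 and Slc25a5 were called whichever library was left out. Slc25a2 was too, but on few reads and after passing the filter through its high LC libraries, so this is no support for its rise. Without AL replicate 3, the rises numbered 2 and the falls 3, and without AL replicate 4 they numbered 3 and 4. Over all genes the share called went from 31.5% to 16.2% and 19.7% in these fits, so the loss is not particular to the carriers. Without AL replicate 2 all 5 rises and 9 falls stayed, Slc25a29 rose too, and 33.4% of all genes were called. Over all genes tested, AL replicate 2 correlated with the LC libraries at 0.959 to 0.970, and AL replicates 3 and 4 at 0.947 to 0.960. With AL replicates 3 and 4 it correlated at 0.978 and 0.975. Without LC replicate 1 the falls numbered 5, with Slc25a11, Slc25a10, Ucp2 and Slc25a30 lost, and 24.8% of all genes were called. In the comparison of RF with LC, the 6 carriers that were higher and Slc25a38 among the lower ones were called whichever library was left out, whereas without RF replicate 1 or RF replicate 2 the lower ones numbered 1, and the share of all genes called went from 22.1% to 14.7% and 11.1%. They numbered 2 without LC replicate 2, without LC replicate 3, without LC replicate 4 or without RF replicate 3.

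The genes that work with these carriers were looked up in lists. Their counts stand next to 15.6% of all genes that fell and 16.0% that rose at LC against AL, and 11.4% that were higher and 10.7% that were lower at RF against LC. At LC against AL, 5 of 6 enzymes of the malate-aspartate and glycerol phosphate shuttles fell and none rose, with a median of -0.80. Among them were the cytosolic and mitochondrial malate dehydrogenases Mdh1 (-1.25, SE 0.18, adjusted p = 0.00051) and Mdh2 (-0.88, SE 0.14, adjusted p = 0.00088), and the mitochondrial aspartate aminotransferase Got2 (-0.99, SE 0.17, adjusted p = 0.0013). At RF against LC, 4 of the 6 were higher and none lower. Of 15 ATP synthase subunits, which use the ADP and phosphate that Slc25a5 and Slc25a3 deliver, 8 fell and none rose, with a median of -0.42, and 5 were higher and none lower at RF against LC.

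Carriers are made in the cytosol and brought in by the TOM complex, the small TIM chaperones and the TIM22 complex. Of 16 genes of this route, 7 fell at LC and none rose, with a median of -0.37, among them Timm8b (-0.66, SE 0.11, adjusted p = 0.00091), Tomm6 (-0.66, SE 0.12, adjusted p = 0.0021) and Timm22 (-0.53, SE 0.15, adjusted p = 0.017). At RF against LC, 4 were higher and none lower. Of 3 outer membrane channels, Vdac1 (-0.76, SE 0.15, adjusted p = 0.0026) and Vdac3 (-0.32, SE 0.11, adjusted p = 0.049) fell, and both were higher at RF against LC. Of 17 inner membrane transporters outside the family, 6 fell and none rose, with a median of -0.17, and these 35.3% lie near the 31.5% of all genes called in either direction. Ghitm, a proton/calcium exchanger, gave -0.89 (SE 0.12, adjusted p = 0.00036), and Letm1, a cation exchanger, gave -0.70 (SE 0.13, adjusted p = 0.0015). From LC to RF, 5 of them were higher and 1, Slc8b1, lower.

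Of 15 genes that follow mitochondrial content or its control, 5 fell and 2 rose at LC against AL, with a median of -0.22. This list is not separate from those above: it shares Vdac1, 1 of the 5 that fell, and Tomm20, which was not called. Citrate synthase, Cs (-0.52, SE 0.14, adjusted p = 0.015), and the chaperone Hspd1 (-0.62, SE 0.15, adjusted p = 0.0072) fell, while the nuclear receptor Esrra (0.54, SE 0.13, adjusted p = 0.0067) and the mitochondrial RNA polymerase Polrmt (0.44, SE 0.12, adjusted p = 0.016) rose. From LC to RF, 3 were higher, Vdac1 among them, and 3 lower. Among 8 close relatives of the carriers, 4 of 6 tested fell and none rose: the citrate carrier Slc25a1 (-0.81, SE 0.18, adjusted p = 0.0053), the ornithine carrier Slc25a15 (-0.55, SE 0.14, adjusted p = 0.011), the carnitine carrier Slc25a20 (-0.52, SE 0.14, adjusted p = 0.013) and Mtch2 (-0.35, SE 0.11, adjusted p = 0.028). Ucp1 and Ucp3 were too low to test. At RF against AL, edgeR called 0 genes in each of these lists.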

How the data were processed

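Liver RNA was enriched for poly(A) and sequenced without strand on BGI DNBSEQ, per the labels' protocols. The authors deposited 1 gene table with expected counts, estimated counts that need not be whole (10.9% of values were not whole), and FPKM, scaled by transcript length and depth, for each of 10 samples. Per the submitters' processing notes, HISAT, Bowtie2 and GRCm39 were used, in roles the notes leave unstated. The sources used here do not give the counting program or annotation. Expected counts were rounded, filtered with filterByExpr (12789 of 17359 genes kept) and scaled by TMM. With edgeR 4.0.16 (R 4.3.3), 1 robust quasi-likelihood model took in all 10 libraries, with a mean for each group, and its F test was used, with Benjamini-Hochberg adjustment over all genes tested. SE is the log2 fold change, without sign, divided by the root of F. FPKM served for levels between genes and for limma 3.58.1 alternatives. DESeq2 1.42.0, other scalings and filters, the compared groups alone, a replicate block and leaving out each library were alternatives. Of these steps, only the edgeR comparison of LC with AL was tested on simulated data. The changes planted there were larger than those of most called carriers. Values are given for carriers called in any comparison and 13 named ones. For 1 carrier of the set, which was tested and not called, values are not reported here. The carriers, lists and tests were chosen with earlier results of these data known.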

Additional observations from a re-analysis of the deposited data

Results flagged for a closer look

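Slc25a22, the glutamate carrier, stood apart in 1 library: LC replicate 1 had 577 CPM, while the other LC libraries had 299 to 311. The gap to the nearest library was 0.959 of the group's range, above the critical value of Dixon's test for 4 samples. The test was run on 38 carriers at LC and marked 1, and chance marks about 1 in 20. Without that library, LC against AL gave 0.12 on the log2 scale (adjusted p = 0.72 with edgeR), against 0.41 (adjusted p = 0.31) with it.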

How the results depend on the processing

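Each comparison was repeated under 19 alternatives, and no carrier called with the main settings changed direction under any of them. At LC against AL the main counts were 5 higher and 9 lower. Library totals alone gave 11 and 1, log2(FPKM + 1) gave 13 and 1, and log2(FPKM + 0.1) gave 12 and 2, while over all genes the counts went from 2045 and 1989 to 4395 and 686, 4291 and 708, and 4294 and 715. Leaving out 1 library gave 2 to 6 higher and 3 to 10 lower. At RF against AL the count higher was 0. It was 1 when low counts were not filtered and 1 with DESeq2, Slc25a30 in both, next to 0.0762% and 0.774% of all genes called. With 1 library left out it was 0 to 1. At RF against LC the count lower was 4, and it was 7 with library totals alone, 9 with either FPKM pseudocount, and 1 to 4 with 1 library left out, while the count higher stayed between 5 and 7. Over all genes, the count lower went from 1369 to 2724 with library totals alone. Beyond the scaling shift that library totals and FPKM carry by construction, the cause was not tested. Slc25a2 was not tested under the stricter filter. Slc25a37 and Slc25a5 were called at LC against AL under all 19, as were Slc25a30, Slc25a38, Slc25a44, Slc25a45 and Slc25a5 at RF against LC. Depth limits the 5 untested carriers, since 3 counts equal 0.161 to 0.234 CPM.

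Same-numbered libraries were not taken as pairs, because the labels state no pairing. The correlations of their deviations were 0.02, -0.05 and 0.07 for LC with AL, -0.04 and 0.01 for RF with AL, and 0.25, 0.18 and 0.05 for RF with LC. All 6 LC and RF libraries numbered 1 to 3 correlated best with their own number, a hint from the data only. With the replicate block, 5 carriers were higher and 6 lower at LC against AL, where 21.9% of all genes were called, against 31.5% in the main fit. The counts were 0 and 0 at RF against AL, next to 0.201% of all genes, and 6 and 4 at RF against LC, next to 25.1%. Slc25a11, Slc25a10 and Ucp2 were not called at LC against AL in that fit, and at RF against LC Slc25a2 was lost and Slc25a33 gained.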

Other observations

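The ratio of 2 carriers within a library does not depend on how libraries are scaled. These ratios were chosen after their values were seen and are given without a test. The FPKM of Slc25a5 over that of Slc25a3, the ADP/ATP carrier over the phosphate carrier, lay between 0.853 and 1.64 at AL, between 0.465 and 0.574 at LC, and between 1.08 and 1.37 at RF. All of LC was thus below both other groups. The FPKM of Slc25a10 over that of Slc25a11, the dicarboxylate over the oxoglutarate carrier, lay between 1.66 and 2.12 at AL, between 1.80 and 2.15 at LC, and between 1.27 and 1.34 at RF. Here all of RF was below both other groups. The ratio of Slc25a37 to Slc25a28, the 2 mitoferrins, overlapped between groups and lay between 0.798 and 1.43 over the 10 libraries.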
